A study of Mus musculus with 12 samples.

Results

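Saa1, Saa2, Saa3, Hp, Lcn2, Wfdc21 and Camp are 7 genes for proteins that mammals release during inflammation and infection, and they were followed here across 12 RNA-seq libraries of mouse bone marrow-derived macrophages. Each was taken by its symbol from the deposited table of gene levels, and all 7 were found, each with 1 entry, among 12441 genes in all. They were selected on measured values, namely their read counts at rest and with lipopolysaccharide (LPS) in these same 12 libraries. Their LPS differences are therefore given as a description without a test, while the genotype comparisons, which did not choose them, were tested.

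The study asked how homozygosity for D316Y in COQ6, an enzyme of coenzyme Q synthesis in mitochondria, affects the macrophage transcriptome. There were 4 groups of 3 libraries. They were D316Y macrophages (homozygous) with LPS, wild-type (WT) macrophages with LPS, unstimulated D316Y macrophages and unstimulated WT macrophages. Cells of all 4 groups were grown from bone marrow for 6 days with 10% L929-conditioned medium, a source of the macrophage growth factor CSF1. LPS, a bacterial cell wall lipid sensed through Toll-like receptor 4, was given at 100 ng/mL for 24 h. The age of the mice is not given in the sources used here, and the labels do not state whether the replicates are separate mice or cultures. A p-value therefore reflects the spread among these libraries alone, which may be technical.

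In the acute-phase response, interleukin-6, interleukin-1 and tumour necrosis factor released at a site of inflammation act on the liver, which secretes serum amyloid A, haptoglobin and related proteins into the blood, largely through the transcription factors STAT3, C/EBP beta, C/EBP delta and NF-kappaB. Macrophages and epithelia make some of these proteins themselves. Serum amyloid A proteins associate with high-density lipoprotein, haptoglobin captures free haemoglobin, and lipocalin 2 and cathelicidin act against bacteria by withholding iron and by disrupting membranes.

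Each library held 32.8 to 47.2 M counted reads. Levels are in counts-per-million (CPM) of the authors' effective library size, which was 1.19 to 1.32 times the reads in the table at rest and 0.83 to 0.92 times with LPS. All 10 macrophage markers examined, among them Csf1r and Adgre1, were measured in every group, with summed levels of 54970 to 63810 CPM in D316Y with LPS, 64700 to 70850 CPM in WT with LPS, 32630 to 35640 CPM in unstimulated D316Y and 35230 to 39510 CPM in unstimulated WT. Coq6 itself lay between 3.37 and 3.81 log2 CPM in the 12 libraries and passed in no comparison, and a point mutation read at this level does not check the genotype labels. Mitochondrially encoded genes took 0.449% to 2.97% of the reads, and both unstimulated replicate 1 libraries stood below the other unstimulated libraries of their genotype. A difference passed when its adjusted p was under 0.05 (limma, Benjamini-Hochberg over all genes tested), and by that measure 5 of 11306 genes differed between the genotypes with LPS and 1 of 11525 at rest.

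Saa3 was among the most abundant transcripts of the LPS-treated cells. It encodes the serum amyloid A that in mice is made chiefly outside the liver, macrophages included. With LPS it had 3209250, 3230537 and 2985340 reads in D316Y replicates 1, 2 and 3, and 3134483, 4351021 and 3697704 reads in WT. At rest it had 214, 282 and 244 reads in D316Y and 311, 366 and 173 reads in WT. Every LPS library lay far above every unstimulated library. Scaled to library size, the D316Y libraries fell inside the WT range with LPS and overlapped it at rest.

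The share of all counted reads taken by Saa3 with LPS was 7.81%, 7.58% and 8.45% in D316Y and 6.64%, 9.45% and 7.93% in WT. The lowest of these had a 95% Wilson interval of 6.64% to 6.65% and the highest one of 9.44% to 9.46%, which cover counting error only. Saa3 ranked 2 in reads in each of the 6 LPS libraries, behind the ferritin heavy chain gene Fth1, whereas at rest its rank was 8394 to 8638 in D316Y and 7257 to 8691 in WT. On the CPM scale its level with LPS was 88413 ± 3069 in D316Y and 92297 ± 20964 in WT (SD, n = 3 each), and at rest 4.74 ± 0.548 in D316Y and 5.84 ± 1.77 in WT. The WT LPS libraries were spread more widely than the D316Y ones, with replicate 2 the highest and replicate 1 the lowest of all 6.

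The LPS difference of Saa3 was 14.19 log2 CPM in D316Y (SE 0.22, 18730-fold) and 13.97 in WT (SE 0.22, 16020-fold). It was the largest LPS rise among the genes with reads in all 6 libraries of a genotype, which numbered 11723 in D316Y and 11594 in WT. Since macrophages that each make more Saa3 RNA and a larger number of producing cells give the same change in a bulk library, these cannot be told apart here.

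Saa1 and Saa2 encode the acute-phase serum amyloids that the mouse liver secretes into plasma. No read of either gene was counted in any of the 6 unstimulated libraries, where a count of 0 allows up to 3 reads per library. With LPS, Saa1 had 6453, 6250 and 5237 reads in D316Y and 6647, 8822 and 8270 reads in WT, or 168 ± 8.57 CPM in D316Y and 196 ± 39.1 CPM in WT (SD, n = 3 each). Saa2 had 241, 261 and 149 reads in D316Y with LPS and 253, 297 and 356 reads in WT with LPS. Both genes were thus read in all 6 LPS libraries, and in both the D316Y and WT ranges of CPM overlapped.

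Against the floor of 3 reads per library at rest, Saa1 was at least 2907-fold higher with LPS in D316Y and at least 3093-fold higher in WT. Saa2 was at least 104.5-fold higher in D316Y and at least 117.6-fold higher in WT. These are lower bounds, set by the depth of the unstimulated libraries, and no interaction of genotype and LPS is given for either gene.

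**Figure D1:**
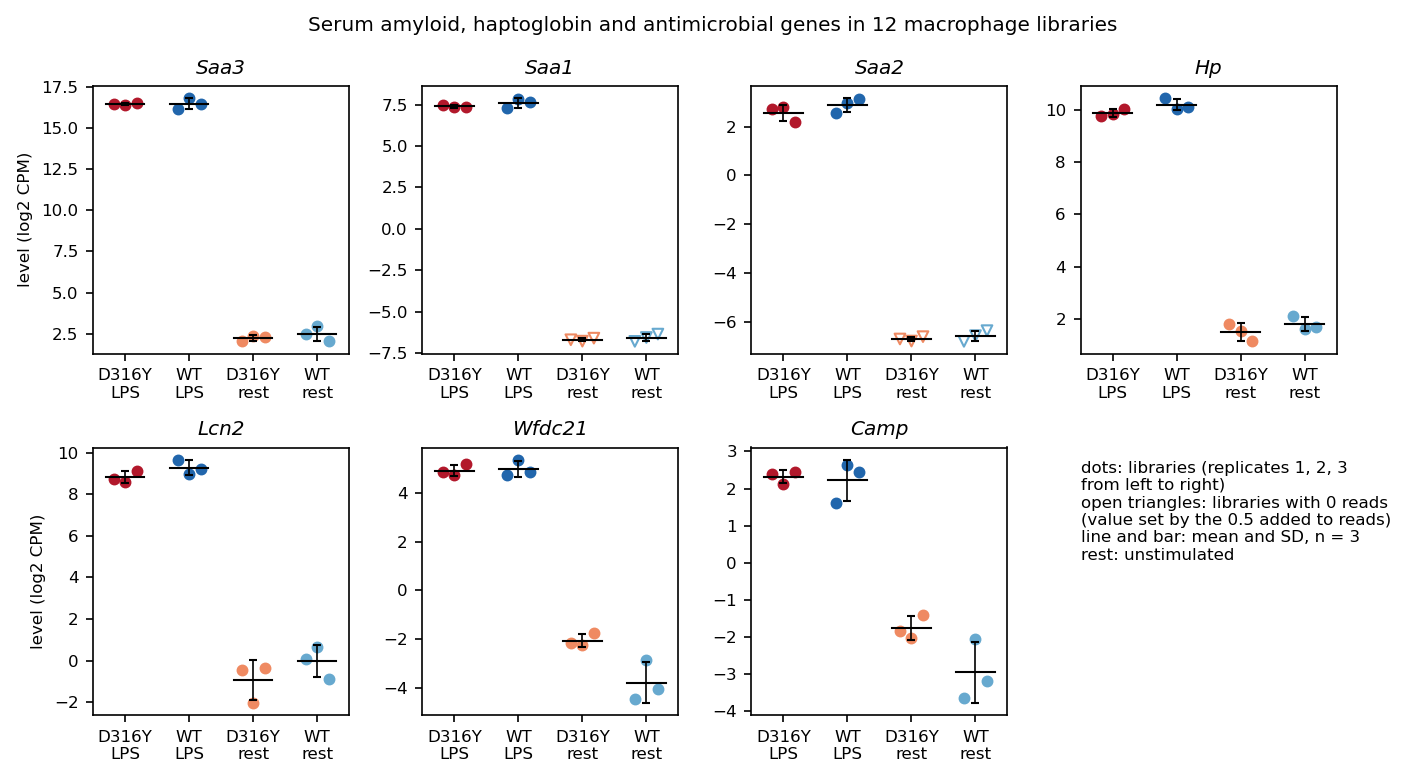
Level of each of the 7 genes in log2 CPM (vertical axis, own scale per panel) in the 3 libraries of each group, with the group mean and SD. Every LPS library lies above every unstimulated one in all 7 panels, and open triangles mark the unstimulated libraries with 0 reads of Saa1 and Saa2.

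The 3 serum amyloid genes lie in 1 cluster on mouse chromosome 7 (GRCm38, GENCODE M21), which spans 42.3 kb from 46711998 to 46754313. Saa3 occupies 46711998 to 46715700 and Saa1 46740497 to 46742980, both on the minus strand, and Saa2 lies at 46751790 to 46754313 on the plus strand. The Saa1 and Saa2 transcripts (GENCODE) were 93.9% identical, against 61.6% between Saa1 and Saa3 and 60.8% between Saa2 and Saa3. How the authors' counting treated reads that match both Saa1 and Saa2 is not given in the sources used here, so the split of reads between these near copies is uncertain, while Saa3 is well separated from both. The windows from 250 bases before to 50 bases after the transcription start are printed here because the 3 neighbours had few or no reads at rest and were all higher with LPS. They are the RefSeq sequences of GRCm38.p6 at chr7:46742931-46743230 (minus strand) for Saa1, chr7:46751583-46751882 (plus strand) for Saa2 and chr7:46715627-46715926 (minus strand) for Saa3, each written 5′ to 3′ along its gene, with capitals marking a match to the C/EBP pattern TTGCNNAA or the kappaB pattern, GGG and CC separated by any 5 bases, on either strand.
Saa1: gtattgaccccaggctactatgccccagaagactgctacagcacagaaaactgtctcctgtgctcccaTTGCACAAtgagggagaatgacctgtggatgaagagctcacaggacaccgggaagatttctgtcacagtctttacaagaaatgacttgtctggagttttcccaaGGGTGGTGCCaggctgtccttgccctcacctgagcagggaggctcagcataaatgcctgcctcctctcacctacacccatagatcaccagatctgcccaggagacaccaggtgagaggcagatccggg
Saa2: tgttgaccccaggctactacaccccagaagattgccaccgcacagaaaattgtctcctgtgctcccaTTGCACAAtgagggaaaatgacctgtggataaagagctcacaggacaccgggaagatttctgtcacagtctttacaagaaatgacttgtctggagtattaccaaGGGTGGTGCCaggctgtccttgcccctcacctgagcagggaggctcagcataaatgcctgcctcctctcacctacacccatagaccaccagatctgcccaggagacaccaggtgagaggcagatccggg
Saa3: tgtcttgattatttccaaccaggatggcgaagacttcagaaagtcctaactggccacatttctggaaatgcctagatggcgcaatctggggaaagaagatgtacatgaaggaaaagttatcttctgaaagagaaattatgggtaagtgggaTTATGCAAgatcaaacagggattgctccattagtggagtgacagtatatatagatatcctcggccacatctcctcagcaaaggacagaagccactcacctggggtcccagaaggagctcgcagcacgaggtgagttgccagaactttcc

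The Saa1 and Saa2 windows were 95.3% identical and held the same 2 matches in the same order. The C/EBP match TTGCACAA began 182 bases before the start of Saa1 and 183 bases before that of Saa2, and the kappaB match GGGTGGTGCC began 78 bases before the start of Saa1 and 79 bases before that of Saa2. The Saa3 window was 50.1% identical to that of Saa1 and 50.0% to that of Saa2. It held a C/EBP match on the other strand, TTATGCAA, 99 bases before the start, and no match to the kappaB pattern. No match to the STAT pattern TTCNNNGAA or to TATAAA was found in these 3 windows. Across 32851 mouse promoter windows of the same length, 10.8% held TTGCNNAA, 50.8% held the kappaB pattern, 8.3% held TTCNNNGAA and 13.6% held TATAAA, so a match describes the letters of a window and is not a measured site.

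Ratios between the serum amyloid genes were taken within each LPS library, where library size cancels. The Saa3 to Saa1 ratio of CPM was 497.3 to 570 in D316Y (median 516.8) and 447.1 to 493.2 in WT (median 471.5). The 2 ranges did not overlap, and an exact two-sided permutation test gave p = 0.1, the smallest that 3 libraries against 3 can give. Among single genes tested with LPS, 12.5% had genotype groups that did not overlap, and no such share was taken for ratios. The Saa1 to Saa2 ratio was 23.9 to 35.0 in D316Y and 23.2 to 29.7 in WT, and these ranges overlapped (exact permutation p = 0.6). The ratios of Saa3 to Hp and of Saa3 to Lcn2 were taken as well, and their ranges overlapped (exact permutation p = 0.5 for each).

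Within 100 kb on either side of the cluster, the genes with a level in the table were Sergef, Saal1, Hps5, Gtf2h1, the pseudogene Gm9392 and Ldha, and their LPS differences were small beside those of the serum amyloid genes. Ldha, which encodes a lactate dehydrogenase subunit, rose by 1.92 log2 CPM with LPS in D316Y (adjusted p = 2.25e-05, limma) and by 1.98 in WT (adjusted p = 2.05e-05). Hps5, the direct neighbour of Saa2 and a gene of lysosome-related organelle biogenesis, rose by 0.74 log2 CPM in D316Y (adjusted p = 0.00577) and by 1.01 in WT (adjusted p = 0.000697), or by 0.23 in D316Y and 0.50 in WT with the reads in the table as library size. Saal1, the direct neighbour of Saa3, differed by 0.32 log2 CPM in D316Y (adjusted p = 0.417) and 0.26 in WT (adjusted p = 0.511), values that turned to -0.20 in D316Y and -0.25 in WT with that library size. Gtf2h1 passed at 0.40 log2 CPM in D316Y (adjusted p = 0.0188) and 0.35 in WT (adjusted p = 0.037), but its difference was -0.12 in D316Y and -0.16 in WT with the reads in the table as library size.

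Hp encodes haptoglobin, the plasma protein that binds haemoglobin released from red cells. It lies on chromosome 8 at 109575128 to 109579172 on the minus strand (GRCm38). With LPS it had 861, 917 and 1039 CPM in D316Y replicates 1, 2 and 3 and 1384, 1052 and 1087 CPM in WT. At rest it had 3.54, 2.92 and 2.22 CPM in D316Y, from 108 to 184 reads, and 4.38, 3.11 and 3.22 CPM in WT, from 132 to 244 reads. All 3 D316Y libraries with LPS lay below all 3 WT libraries with LPS, the highest D316Y library being close under the lowest WT one, whereas the unstimulated groups overlapped. The LPS difference of Hp was 8.36 log2 CPM in D316Y (SE 0.19) and 8.37 in WT (SE 0.19), which is 329.4-fold in D316Y and 330.7-fold in WT.

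Lcn2 encodes lipocalin 2, which binds bacterial siderophores and so withholds iron from bacteria. With LPS it had 429, 385 and 562 CPM in D316Y and 813, 509 and 591 CPM in WT. At rest 38, 13 and 38 reads of it were counted in D316Y and 59, 74 and 22 reads in WT, or 0.590 ± 0.301 CPM in D316Y and 1.06 ± 0.511 CPM in WT (SD, n = 3 each). The genotypes overlapped in both conditions, with WT replicate 1 the highest of the LPS libraries and D316Y replicate 2 the lowest of the unstimulated ones. Its LPS difference of 9.76 log2 CPM in D316Y (SE 0.43) and 9.33 in WT (SE 0.43) ranked 3 among the genes with reads in all 6 libraries of the genotype, in both genotypes.

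Lcn2 lies on chromosome 2 at 32384633 to 32388252 on the minus strand (GRCm38). Its promoter window is shown because it holds matches to the same pair of patterns as Saa1 and Saa2, in the same order and with capitals used in the same way. The RefSeq sequence of GRCm38.p6 at chr2:32387690-32387989 (minus strand) runs 5′ to 3′ along the gene.
Lcn2: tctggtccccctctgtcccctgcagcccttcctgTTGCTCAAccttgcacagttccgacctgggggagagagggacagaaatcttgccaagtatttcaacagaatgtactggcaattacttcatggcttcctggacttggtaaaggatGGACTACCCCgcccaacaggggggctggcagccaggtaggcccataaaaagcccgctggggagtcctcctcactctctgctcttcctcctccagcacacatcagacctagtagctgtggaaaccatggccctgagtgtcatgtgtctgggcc

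The C/EBP match of Lcn2, TTGCTCAA, began 216 bases before the start and its kappaB match, GGACTACCCC on the other strand, 102 bases before it. The Camp window held 2 overlapping kappaB matches after the start and no C/EBP match. No match to TTCNNNGAA or TATAAA was found in either window. The table of promoters used here has no entry for Hp and Wfdc21.

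Wfdc21 encodes a small secreted protein with a whey acidic protein domain, a fold shared with several antimicrobial and protease-inhibiting proteins. It lies on chromosome 11 at 83746940 to 83752642 on the plus strand (GRCm38). With LPS it had 1062, 1003 and 1203 reads in D316Y and 1144, 1585 and 1199 reads in WT. At rest it had 11, 11 and 14 reads in D316Y and 2, 6 and 2 reads in WT. The genotypes overlapped with LPS, while every unstimulated D316Y library lay above every unstimulated WT library. Relative to rest, Wfdc21 was 128.1-fold higher with LPS in D316Y and 442.4-fold higher in WT, where the log2 difference was 8.79 (SE 0.36) from 2, 6 and 2 resting reads. With 1 added to each CPM the LPS difference was 4.67 log2 in D316Y and 4.93 in WT, a much smaller gap between the genotypes. Its levels with LPS were 4.93 ± 0.245 log2 CPM in D316Y and 4.99 ± 0.344 in WT (SD, n = 3 each).

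Camp encodes the cathelicidin precursor from which the antibacterial peptide CRAMP is cut, and its product is best known from neutrophil granules. It lies on chromosome 9 at 109847379 to 109849617 on the minus strand (GRCm38). With LPS it had 192, 164 and 176 reads in D316Y and 130, 234 and 226 reads in WT, the lowest and the highest library both being WT. At rest it had 14, 13 and 18 reads in D316Y and 4, 11 and 4 reads in WT. As for Wfdc21, the unstimulated D316Y libraries lay above the WT ones, here by a narrow margin on the CPM scale between the lowest D316Y and the highest WT library. The LPS difference of Camp, 4.08 log2 CPM in D316Y (SE 0.43) and 5.18 in WT (SE 0.42), was the smallest of the 5 genes that had reads in every library.

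In both genotypes all 7 genes were higher in every LPS library than in every unstimulated one. Such a separation upward was found for 26.7% of all genes tested in D316Y and 22.9% in WT, and because the genes were chosen with this contrast known, nothing is read from the count. Saa1, Saa2, Lcn2, Wfdc21 and Camp reached the level required for testing, 0 log2 CPM as the mean of a compared group, only through their LPS groups. Among genes with reads in all 6 libraries of a genotype the LPS difference ranked 8 for Hp in D316Y and 5 in WT, 14 for Wfdc21 in D316Y and 4 in WT, and 80 for Camp in D316Y and 35 in WT. With the plain number of reads in the table as library size, the median of all genes moved by -0.52 log2 CPM in D316Y and -0.51 in WT. On that scale Saa3 stood at 13.68 log2 CPM in D316Y and 13.46 in WT and Camp at 3.57 in D316Y and 4.68 in WT, so that every one of the 5 still lay far above the shifted median.

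**Figure D2:**
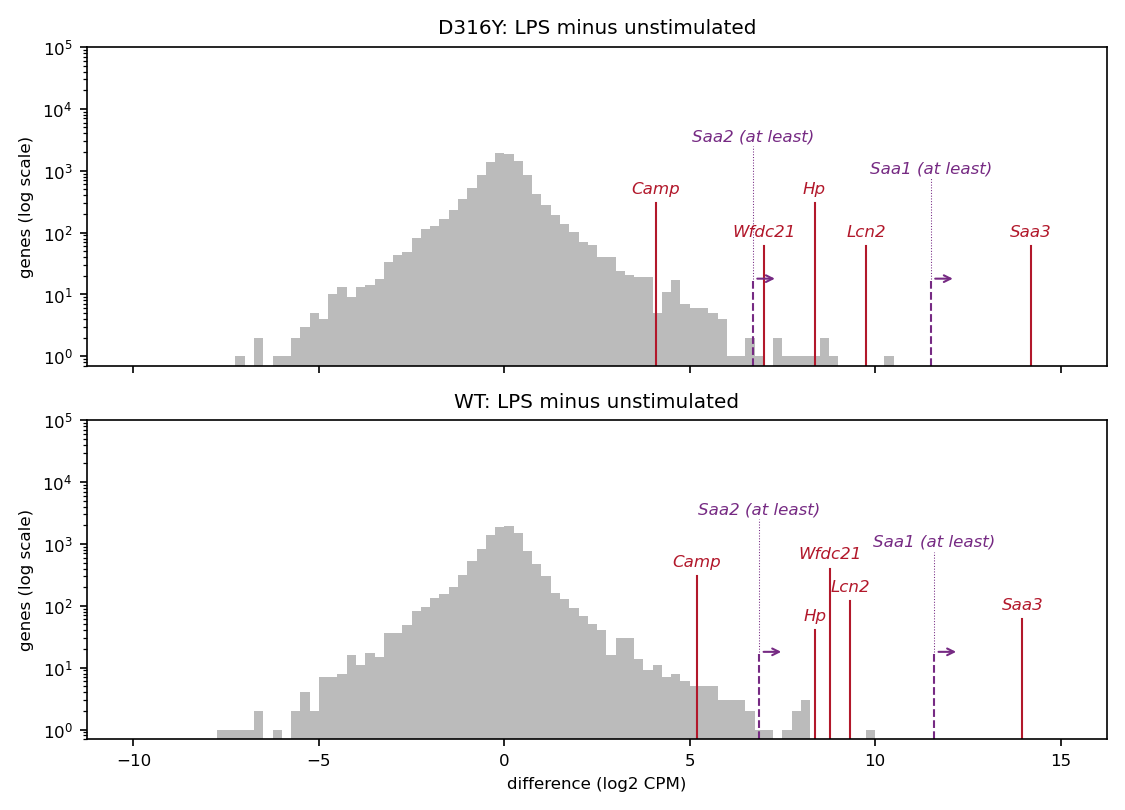
Number of genes (vertical axis, log scale) by LPS difference in log2 CPM (horizontal axis) in D316Y (upper panel) and WT (lower panel), for genes with reads in all 6 libraries of the genotype. Red lines mark the 5 members with such a difference, up to 14.19 for Saa3 in D316Y, and dashed purple lines with arrows mark the lower bounds of Saa1 and Saa2.

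Per kilobase of their main GENCODE transcript, the levels with LPS ran in the order Saa3, Hp, Lcn2, Saa1, Wfdc21, Saa2 and Camp in both genotypes. Saa3 stood at 159302 ± 5530 CPM per kb in D316Y and 166301 ± 37773 in WT (SD, n = 3 each), and Hp followed at 698 ± 67.7 in D316Y and 873 ± 136 in WT. Lcn2 had 501 ± 101 CPM per kb in D316Y and 697 ± 172 in WT, so that in WT the spread of Lcn2 reached that of Hp. Saa1 had 276 ± 14.1 CPM per kb in D316Y and 321 ± 64.3 in WT. Wfdc21 had 71.2 ± 12.4 CPM per kb in D316Y and 74.8 ± 18.7 in WT. Saa2 at 9.98 ± 2.10 and Camp at 6.62 ± 0.766 CPM per kb in D316Y were the lowest, as they were in WT with 12.3 ± 2.35 for Saa2 and 6.46 ± 2.18 for Camp. With the summed length of all exons of a gene in place of the main transcript, Wfdc21 moved above Saa1 in D316Y and Camp above Saa2 in both genotypes, so the order of those pairs depends on the length used.

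The genotype comparison with LPS asked whether D316Y macrophages express these genes at another level than WT macrophages after the same treatment. None of the 7 genes passed, against 0.0442% of all genes tested, and voom weighting of the recovered reads also called 0. At an unadjusted p under 0.05 stood 2 of the 7, Hp and Lcn2, against 6.5% of all genes tested. The difference was negative for 6 of the 7 genes, with a median of -0.20 log2 CPM, beside 50.8% of all genes with a negative difference and a median of -0.0033 over all genes. Only Hp had groups that did not overlap, as did 12.5% of all genes tested.

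Lcn2 had the largest of these differences, -0.47 log2 CPM in D316Y relative to WT (SE 0.19, 95% interval -0.87 to -0.06, unadjusted p = 0.0285, adjusted p = 0.693, limma). Hp differed by -0.32 log2 CPM (SE 0.14, 95% interval -0.63 to -0.0050, unadjusted p = 0.047, adjusted p = 0.757, limma). An exact two-sided permutation test over the 6 libraries gave p = 0.2 for Lcn2 and p = 0.1 for Hp, where 0.1 is the smallest possible. Both genes were highest in WT LPS replicate 1, the LPS library with the lowest mitochondrial share of reads, 0.658%, against 0.849% to 1.10% in the other 5; the part of that library's quality in the differences was not tested. Without it the differences were -0.28 for Lcn2 and -0.19 for Hp, and over all alternatives the adjusted p ran from 0.177 to 1.0 for Lcn2 and from 0.192 to 1.0 for Hp (limma). The authors' deposited table lists -0.453 for Lcn2 with an adjusted p of 0.268 and -0.293 for Hp with an adjusted p of 0.403.

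The macrophage markers stood on the same side, with 9 of 10 negative differences with LPS, a median of -0.23 log2 CPM and none passed. So did other acute-phase proteins (6 of 8, median -0.18), signals and regulators (13 of 19, -0.17), receptors and handling genes (8 of 13, -0.13) and other antimicrobial genes (9 of 14, -0.07). Of the neutrophil markers 2 of 6 were negative (median 0.10). Over all genes tested with LPS, 50.8% were negative. None of the listed genes passed, and their part in the values of Hp and Lcn2 was not tested.

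The serum amyloid genes had smaller differences than Lcn2. Saa3 stood at -0.04 log2 CPM in D316Y relative to WT (SE 0.17, adjusted p = 0.987, limma), with a 95% interval of -0.40 to 0.33, and the sign of so small a value turned with the scaling, to 0.0025 with the reads in the table as library size. Saa1 differed by -0.20 (SE 0.15, 95% interval -0.53 to 0.12, adjusted p = 0.845) and Saa2 by -0.31 (SE 0.22, 95% interval -0.78 to 0.17, adjusted p = 0.836). Wfdc21 at -0.06 (SE 0.18, 95% interval -0.46 to 0.34, adjusted p = 0.981) and Camp at 0.09 (SE 0.26, 95% interval -0.48 to 0.66, adjusted p = 0.977) had intervals on both sides of 0. In the authors' deposited table the difference is -0.0172 for Saa3, -0.207 for Saa1, -0.382 for Saa2, 0.00888 for Wfdc21 and 0.00279 for Camp, with adjusted p-values of 0.347 for Saa2 and above for the others. The interval listed there for Saa2, -0.717 to -0.048, lies below 0, unlike the one from the fit used here.

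**Figure D3:**
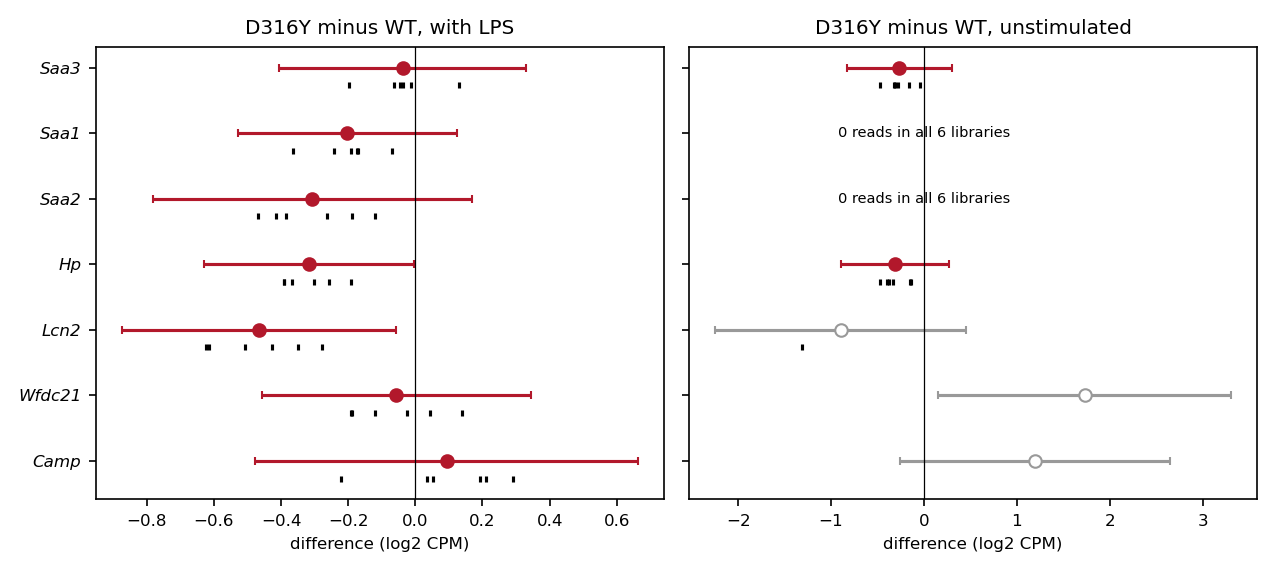
Difference of D316Y minus WT in log2 CPM (horizontal axes, own scale per panel) with its 95% interval for each gene, with LPS (left) and unstimulated (right). Short black ticks are the differences with 1 library left out, and open grey points mark genes under the level required for testing, whose values come from a fit without that filter; Lcn2 and Hp have intervals below 0 with LPS.

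At rest Saa3 and Hp, with 108 to 366 reads per library, reached the level required for testing; the other 5 genes had 0 to 74 reads per library and did not. Neither of these 2 passed, against 0.00868% of all genes tested; 0 of them had an unadjusted p under 0.05, against 2.92% of all genes tested, and voom weighting also called 0. Saa3 differed by -0.26 log2 CPM in D316Y relative to WT (SE 0.25, 95% interval -0.83 to 0.30, adjusted p = 0.942, limma). Hp differed by -0.31 (SE 0.26, 95% interval -0.90 to 0.27, adjusted p = 0.942). The macrophage markers stood on the same side at rest, with 10 of 10 negative differences and a median of -0.20 log2 CPM. The other acute-phase protein genes had 7 of 7 negative and a median of -0.32. The genes of acute-phase signals and regulators had 15 of 18 negative (median -0.26), and receptors and handling genes 9 of 13 (median -0.11). Of all genes tested at rest, 53.8% had a negative difference, with a median of -0.02. None of the listed genes passed, and their part in the values of Saa3 and Hp was not tested. Lcn2, just under the level for testing, differed by -0.90 (SE 0.59, adjusted p = 0.945, limma without the filter on low values).

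Wfdc21 and Camp pointed the other way at rest, from few reads. Summed over the 3 unstimulated libraries of each genotype, Wfdc21 had 36 reads in D316Y and 10 reads in WT, a ratio of 3.33 after scaling to library size, with a 95% interval of 1.62 to 7.52 that covers counting error only. Camp had 45 reads in D316Y and 19 reads in WT, a ratio of 2.19 (95% interval 1.25 to 3.96, counting error only). In the fit over libraries, without the filter on low values, Wfdc21 differed by 1.73 log2 CPM (SE 0.69, unadjusted p = 0.0352, adjusted p = 0.945, limma) and Camp by 1.20 (SE 0.63, unadjusted p = 0.0939, adjusted p = 0.945). The groups did not overlap for either gene. Of all genes tested at rest, 2.95% had no overlap in that direction and 8.13% had none in either direction. Wfdc21 and Camp were under the level required for testing, so they are not among those genes. An exact permutation test gave the smallest possible p, 0.1, for both. The authors' deposited table lists 1.70 for Wfdc21 (adjusted p 0.485) and 1.15 for Camp (adjusted p 0.454).

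Of the neutrophil markers tested at rest, 5 of 8 had a positive difference in D316Y relative to WT, with a median of 0.24 log2 CPM, and none passed. Over all genes tested at rest, 53.8% had a negative difference and the median was -0.02. Of 24 neutrophil markers, 14 were not among the genes analysed here, the defining markers Ly6g, Mpo and Elane included. S100a8, which encodes a subunit of the neutrophil protein calprotectin, averaged 3.65 log2 CPM in unstimulated D316Y and 2.47 in unstimulated WT (difference 1.18, SE 0.53, adjusted p = 0.942, limma). S100a9, its partner subunit, averaged 1.60 in D316Y and 0.49 in WT (difference 1.10, SE 0.59, adjusted p = 0.942). The granule protein genes Ngp, at 1.25 in D316Y and 0.83 in WT, and Ltf, at 0.22 in D316Y and -0.12 in WT, showed smaller differences (adjusted p = 0.942 for Ngp and 0.964 for Ltf). Summed over the 10 measured markers, levels were 91.1 to 106.4 CPM in unstimulated D316Y and 87.7 to 108.2 CPM in unstimulated WT, so the ranges overlapped. Csf3r made up the largest part of that sum, with a mean of 5.78 log2 CPM in D316Y and 6.07 in WT, a difference opposite in sign to those of S100a8, S100a9, Ngp and Ltf. The part of such cells in the values of Wfdc21 and Camp was not tested.

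With LPS the summed neutrophil markers stood at 209.5 to 247.7 CPM in D316Y and 208.2 to 221.3 CPM in WT, above the unstimulated ranges, with Csf3r alone at a mean of 7.37 log2 CPM in D316Y and 7.23 in WT. The markers moved in both directions: 4 of 9 tested rose and 2 fell with LPS in D316Y, with a median of -0.27 log2 CPM, and 3 of 8 rose and 1 fell in WT, with a median of 0.69. Of all genes tested, 19.4% were higher and 19% lower in D316Y, and 18.1% were higher and 19% lower in WT. These values lie beside the LPS differences of Camp, Wfdc21 and Lcn2. Mmp25 rose by 2.54 log2 CPM in D316Y and 1.92 in WT, and Csf3r, the receptor of granulocyte colony-stimulating factor, by 1.59 in D316Y and 1.16 in WT. S100a8 rose as well, with 1210, 1358 and 1276 reads in D316Y and 1035, 1697 and 1167 in WT with LPS, against 404, 784 and 875 in D316Y and 134, 507 and 270 in WT at rest. Its partner S100a9 did not pass, at -0.27 log2 CPM in D316Y (adjusted p = 0.756, limma) and 0.77 in WT (adjusted p = 0.347). Mmp9 fell in D316Y, at -0.82 (adjusted p = 0.0165), and did not pass in WT, at 0.16 (adjusted p = 0.653). Ngp went the opposite way to Camp, with -1.79 log2 CPM in D316Y and -1.26 in WT. It is counted above among the markers that fell. However, Ngp reached the level required for testing only through its unstimulated groups, so its fall is a description. Ltf had 22, 4 and 16 reads in D316Y with LPS and 7, 4 and 6 in WT with LPS, against 93, 25 and 93 in unstimulated D316Y and 88, 113 and 8 in unstimulated WT. Of 10 hepatocyte markers, Apoa2 alone was analysed here, Alb not being among the genes analysed, and its level of 0.42 to 0.86 CPM in D316Y and 0.28 to 1.09 CPM in WT with LPS overlapped with 0.40 to 1.00 CPM in D316Y and 0.68 to 0.93 CPM in WT at rest. Of 20 markers of other marrow cells, 1 rose and 2 fell among the 5 tested in D316Y and 1 rose and 3 fell among the 5 tested in WT. Ly6c2 was up by 7.58 log2 CPM in D316Y and 7.25 in WT. Ccr2 went down, at -1.72 in D316Y and -1.71 in WT, as did Kit in WT, at -1.49. Cd34 fell, with 0, 1 and 0 reads in D316Y and 6, 0 and 1 in WT with LPS, against 117, 99 and 78 in D316Y and 57, 91 and 82 in WT at rest. The part of other marrow cells in the LPS differences was not tested.

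**Figure D4:**
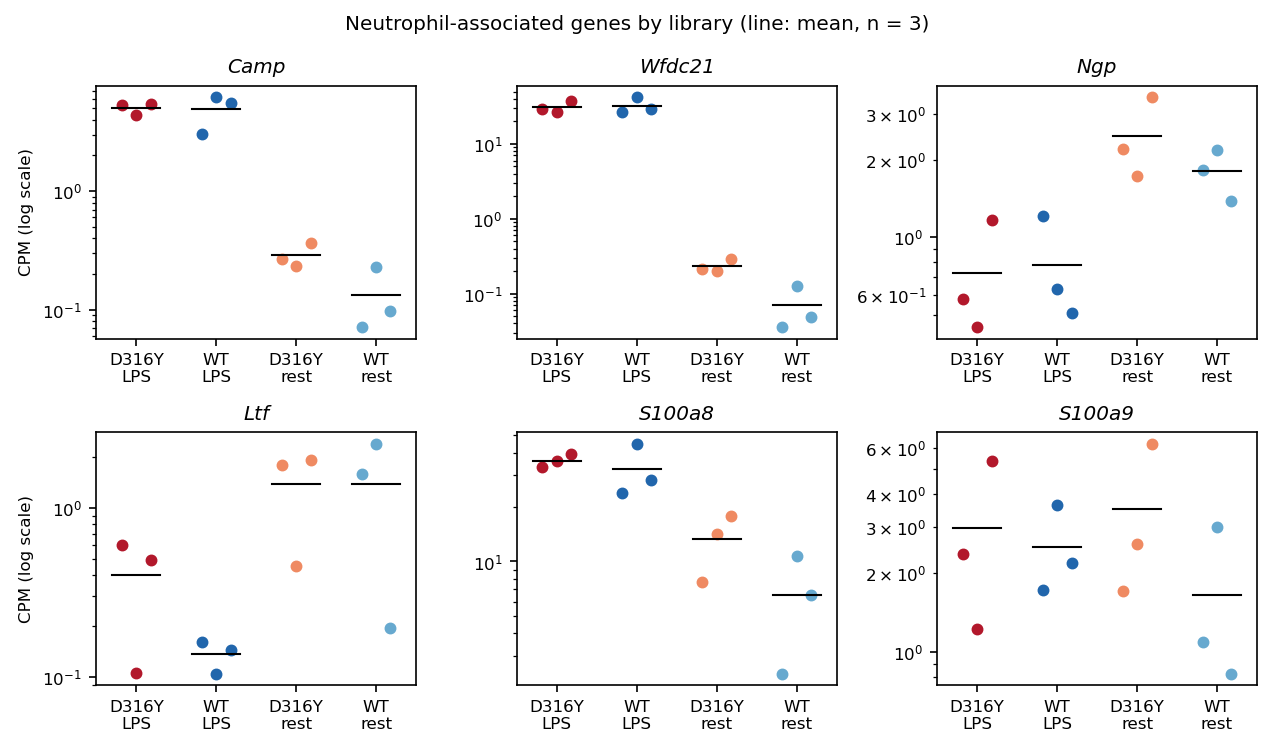
CPM (vertical axes, log scale, own range per panel) of Camp, Wfdc21 and 4 other genes associated with neutrophils in the 3 libraries of each group, with the group mean as a line. Camp, Wfdc21 and S100a8 are higher in the LPS groups, while Ngp and Ltf have their highest libraries among the unstimulated ones.

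The interaction of genotype and LPS, the genotype difference with LPS minus that at rest, was fitted for the 5 members with reads in every library. Saa3 and Hp, which reached the level for testing in all 4 groups, stood at 0.22 log2 CPM for Saa3 (SE 0.31, adjusted p = 0.999, limma) and -0.01 for Hp (SE 0.27, adjusted p = 0.999). Neither passed, as was so for all 11918 genes tested (0% called); neither had an unadjusted p under 0.05, against 2.11% of all genes, and voom weighting also called 0. Wfdc21, Camp and Lcn2 entered the fit only through their LPS groups, so their values are a description with no test. The value for Wfdc21, -1.79 log2 CPM (SE 0.51), rests on the 10 reads of unstimulated WT and was -0.26 when 1 was added to each CPM before taking the log. That of Camp was -1.10 (SE 0.60) and that of Lcn2 0.43 (SE 0.60). The sign of the Lcn2 interaction turned to -0.10 when 1 was added to each CPM.

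The cytokines and transcription factors known to drive the acute-phase response were examined from a list of 24 genes. With LPS, 11 of the 20 tested rose and 4 fell in each genotype, beside the shares of all genes given above. This list and the others used here were chosen with earlier results of these data known, so their LPS counts and medians are a description. Il6, Il1a, Cfb, Nos2 and Slpi, among others, reached the level required for testing only through their LPS groups. Cebpa, Ngp and Cd34, among others, reached it only through their unstimulated groups, so their falls are likewise a description. The median over the list was 0.93 log2 CPM in D316Y and 0.75 in WT, against -0.03 and -0.01 over all genes, and no listed gene that passed changed its sign when the reads in the table served as library size. Il1b, an inducer of the response, rose by 8.91 log2 CPM in D316Y and 8.20 in WT, and Socs3, a feedback inhibitor of STAT3 signalling, by 6.70 in D316Y and 5.79 in WT. Il6 had 89, 68 and 53 reads with LPS in D316Y and 60, 80 and 57 reads in WT, against 0, 0 and 0 reads in unstimulated D316Y and 2, 0 and 4 in unstimulated WT. It was at least 33.9-fold higher with LPS in D316Y, against the floor of 3 reads per library.

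The transcription factor genes had smaller differences than the 7 genes above. Cebpb and Cebpd, for C/EBP beta and delta, rose by 1.91 and 1.87 log2 CPM in D316Y and by 2.44 and 2.52 in WT. Stat3 rose by 1.04 in D316Y (adjusted p = 0.00234, limma) and 0.82 in WT (adjusted p = 0.011), and Tnf by 0.82 in D316Y and 0.68 in WT. With the reads in the table as library size these were 0.52 in D316Y and 0.31 in WT for Stat3, and 0.31 in D316Y and 0.17 in WT for Tnf. Nfkbiz, for the nuclear cofactor IkappaB zeta, did not pass (0.52 in D316Y, adjusted p = 0.232, and -0.11 in WT, adjusted p = 0.817). The 4 genes that fell were Cebpa, Lifr, Il6st and Nfkb1 in both genotypes; Cebpa, for C/EBP alpha, stood at -2.63 in D316Y and -2.70 in WT, and Il6st, the signal-transducing chain of the interleukin-6 receptor, at -2.21 in D316Y and -2.03 in WT. Between the genotypes none of these genes passed with LPS or at rest; Il1a, at 0.51 log2 CPM (adjusted p = 0.59), and Il1b, at 0.33 (adjusted p = 0.693), had the smallest unadjusted p-values with LPS.

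Of 29 listed genes of other acute-phase proteins, 11 were analysed here and 8 tested. With LPS 5 of the 8 rose and 1 fell in D316Y, and 4 rose and 1 fell in WT. The median was 1.91 log2 CPM in D316Y and 1.38 in WT, against -0.03 and -0.01 over all genes. The shares over all genes tested were 19.4% higher and 19% lower in D316Y, and 18.1% higher and 19% lower in WT. Cfb, for complement factor B, rose by 8.52 log2 CPM in D316Y and 7.81 in WT. The size of its rise rests on few resting reads, 24, 5 and 6 in D316Y and 38, 11 and 9 in WT. Cp, for the copper-carrying ferroxidase ceruloplasmin, rose by 3.40 in D316Y and 3.33 in WT. C3 rose by 2.97 in D316Y and 2.65 in WT, and Il1rn, for the interleukin-1 receptor antagonist, by 2.28 in D316Y and 1.96 in WT. The metallothionein gene Mt1 fell, at -0.97 in D316Y and -0.84 in WT. None of the 8 genes tested passed between the genotypes with LPS, and none of the 7 tested did at rest.

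Of the other antimicrobial genes of macrophages and neutrophils, 10 of 16 tested rose with LPS and 1 fell in D316Y, and 10 of 15 rose and 1 fell in WT. Their medians were 0.80 log2 CPM in D316Y and 1.02 in WT, against -0.03 and -0.01 over all genes. Among all genes tested, 19.4% were higher and 19% lower in D316Y, and 18.1% were higher and 19% lower in WT. Nos2, for inducible nitric oxide synthase, rose in both, with 2679, 2378 and 1626 reads in D316Y and 3204, 1156 and 2465 in WT with LPS, against 0, 2 and 2 in D316Y and 6, 0 and 4 in WT at rest, too few to size the change. Acod1, for the enzyme that makes itaconate, rose by 8.05 in D316Y and 7.59 in WT. Slpi, a secreted inhibitor with whey acidic protein domains like that of Wfdc21, rose by 5.98 in D316Y and 6.00 in WT, and the further family member Wfdc18 by 3.18 in D316Y and 3.57 in WT. The gene that fell was Ngp in both genotypes.

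Receptors and genes that handle the products moved in both directions. Of 13 tested, 5 rose and 3 fell with LPS in D316Y and 5 rose and 4 fell in WT. Their medians were -0.03 log2 CPM in D316Y and -0.14 in WT, against -0.03 and -0.01 over all genes. The shares over all genes tested were 19.4% higher and 19% lower in D316Y, and 18.1% higher and 19% lower in WT. Fpr2, a formyl peptide receptor that also binds serum amyloid A, rose by 6.49 log2 CPM in D316Y and 5.71 in WT, and Fpr1 by 7.31 in D316Y and 6.63 in WT. Hmox1, for the haem-degrading enzyme that acts after haemoglobin uptake, rose by 1.63 in D316Y and 1.67 in WT, while Cd163, the scavenger receptor for haptoglobin and haemoglobin, did not pass (-0.45 in D316Y, adjusted p = 0.108, and -0.37 in WT, adjusted p = 0.185). Tlr2, a further receptor reported for serum amyloid A, rose by 1.30 in D316Y and 1.13 in WT. Cd36 and Lrp1 fell in both genotypes, with a difference for Cd36 of -1.49 in D316Y and -1.40 in WT. Bdh2, an enzyme linked to a mammalian siderophore that lipocalin 2 binds, passed in D316Y at -1.12 (adjusted p = 0.0285) and not in WT at -0.91 (adjusted p = 0.0708), and its interaction was part of a fit in which no gene passed.

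**Figure D5:**
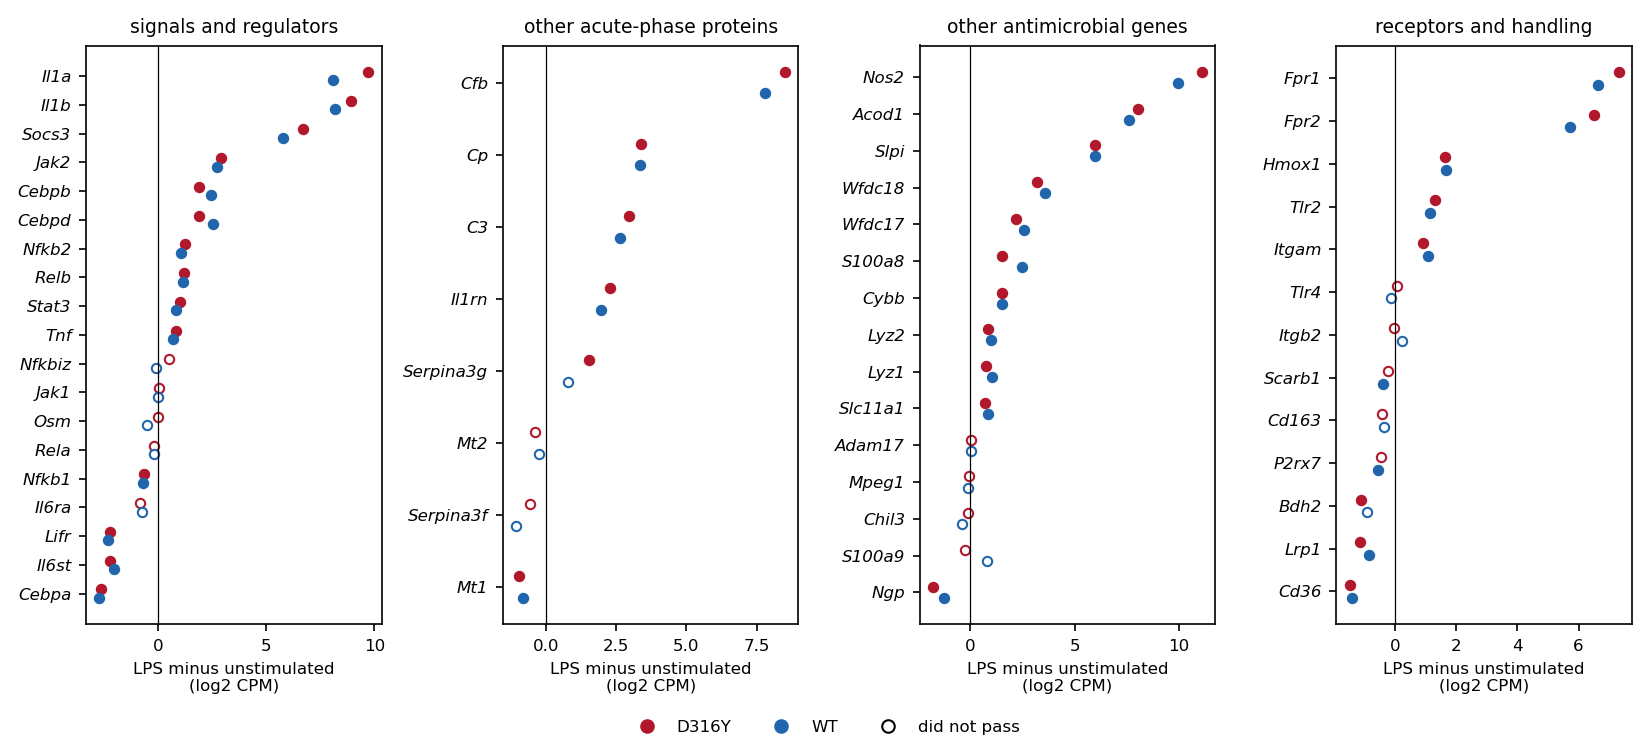
LPS difference in log2 CPM (horizontal axes, own scale per panel) of the tested genes in 4 lists, D316Y in red above WT in blue, filled where the gene passed. Il1a, Il1b and Socs3, Cfb, Nos2 and Acod1, and Fpr1 and Fpr2 are the highest of their lists in both genotypes. Il6 and Ltf, which lack a value in 1 genotype, are left out. Few reads per unstimulated library stand behind Nos2 (0 to 6), Il1a (0 to 25) and Cfb (5 to 38).

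Across the 12 libraries the levels of the 7 genes ran closely together, all of them carrying the same LPS contrast. Of 10048 genes with a mean of at least 1 log2 CPM, those most like Saa3 were Klra2 (Pearson r = 0.9992), Clec4e (0.9985) and Prdx5 (0.998), those most like Hp were Pilrb1 (0.999) and Sod2 (0.9989), and the gene most like Lcn2 was Cp (0.9972). Camp was the member most like Wfdc21, and Wfdc21 the one most like Camp (r = 0.9948), though Saa3 and Hp had a higher r with each other (0.9972). After the mean of each group was taken away, Camp and Wfdc21 still ran together over the 12 libraries (r = 0.925), and Saa3 ran with Camp (0.73) and Wfdc21 (0.715). Hp ran against Camp (-0.695) and Wfdc21 (-0.573), and Lcn2 was loosely related to each of them, with values of 0.106 to 0.409 against Hp, Saa3, Wfdc21 and Camp. Genes outside the 7 reached similar or higher values on the same measure. Examples are Klra2 with Camp (0.944), Orc4 with Wfdc21 (0.914), Gm15987 with Saa3 (0.916) and Pum2 with Hp (0.968). All of these values are descriptions over libraries that share scaling and depth within each library, and Wfdc21 and Camp rest on few reads at rest.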

How the data were processed

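RNA-seq levels of 12 libraries in 4 groups of 3 were used as the authors deposited them: log2 counts-per-million, identical in both deposited sets, per the file headers. Per the submitters' processing notes the tools included STAR 2.5.1a, featureCounts 1.4.6-p5, edgeR and limma, with no settings; genome build and annotation: not given in the sources used here. The deposited p-values and log2 fold changes of the authors' comparisons are quoted only as theirs. Whole reads were recovered from the log2 values by undoing the addition of 0.5 and the library size: in every library 100% of the values under 200 reads came within 0.01 of a whole read. The 12493 entries held 52 repeated identifiers, leaving 12441 genes; their reads came to 32.8 to 47.2 M per library.

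Because the deposited unit is log2, limma 3.58.1 (R 4.3.3, data.table version 1.17.8) was fitted to all genes whose average reached 0 log2 CPM in some compared group, with eBayes trend and robust, two-sided tests and Benjamini-Hochberg adjustment at 0.05. Genotypes were compared within the 6 LPS and the 6 unstimulated libraries; the fit for LPS and the interaction took all 12 libraries. The fit was tested on simulated data. The planned protein comparison was replaced by transcript identity. A group with 0 reads was set to a floor of 3 reads per library. Intervals of shares are Wilson intervals and those of read ratios exact; with no molecular identifiers, these and the floors cover counting error only. Promoters (RefSeq) were searched on both strands with Python 3.11.15, pandas 2.3.3, scipy 1.17.1 and Biopython 1.88; figures used matplotlib 3.10.9.

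The 7 genes, and the lists of acute-phase, antimicrobial, receptor, neutrophil, hepatocyte, macrophage and other marrow cell genes, were chosen with earlier results of these data known. All 7 are named. From each list, genes past the threshold with the largest differences are named, with those of the smallest unadjusted p where none passed, and the main cytokines, transcription factors and markers whatever their values; the most alike genes are those with the highest Pearson r. Same-numbered unstimulated libraries deviated together across genes (r = 0.671, 0.667 and 0.225 between D316Y and WT for replicates 1, 2 and 3), so the replicate number was tried as a block. D316Y replicate 2 with WT replicate 3 (0.432) and D316Y replicate 3 with WT replicate 2 (0.331) exceeded the last of these values. Matching by number was therefore not clear for replicates 2 and 3. Alternatives were other filters, scalings, a larger pseudocount, voom, plain eBayes, the block, 1 fit for all, and leaving out libraries.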

Additional observations from a re-analysis of the deposited data

How the results depend on the processing

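Under the alternatives that gave a value, none of the 7 genes passed in a genotype comparison (lowest adjusted p 0.177). The interaction of Saa3 and that of Hp did not pass either. The alternatives gave 262 values in all. These include 22 interaction values each for Lcn2, Wfdc21 and Camp, which are a description with no test. At rest Wfdc21 and Camp had 1 alternative each and Lcn2 4, and Saa1 and Saa2 had no value at rest or for the interaction. Of the 262, with those untested interaction values counted, 246 kept their direction. The 16 that turned all belong to values near 0 or resting on few reads. Saa3 with LPS was 0.0025 with the reads in the table as library size and 0.0014 with Saa3 left out of the library total, an alternative chosen after seeing the data. The Hp interaction was 0.0058 with voom, and the Lcn2 interaction -0.10 with 1 added to CPM. With 1 library left out, the genotype difference with LPS ranged from -0.20 to 0.13 for Saa3 (0.13 without WT LPS replicate 2), from -0.19 to 0.14 for Wfdc21 and from -0.22 to 0.29 for Camp (-0.22 without WT LPS replicate 1), and the interaction from -0.18 to 0.15 for Hp and from -0.12 to 0.84 for Lcn2.

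All 200 values of the LPS differences and bounds stayed positive, and 29 moved by more than the replicate SD. With 1 added to CPM, the LPS difference was 4.67 log2 for Wfdc21 in D316Y and 4.93 in WT, and for Camp 2.21 in D316Y and 2.33 in WT.

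Over all genes, the calls between genotypes at rest numbered 1 in the text, 0 without the filter on low values or with plain eBayes, 6 with the replicate block, 4 in 1 fit of 12 libraries, 10 without both unstimulated replicate 1 libraries and 0 to 1 with 1 library left out. With LPS they numbered 5, against 3 with the reads in the table as library size, 3 with Saa3 left out, 1 with plain eBayes, 6 with the replicate block and 2 to 22 with 1 library left out (22 without WT LPS replicate 2). With the block, the adjusted p at rest was 0.515 for Saa3 and 0.422 for Hp, the only ones of the 7 genes fitted with it there; neither was called. With the reads in the table as library size, LPS called 7005 genes in D316Y (15% of them higher, 50.6% in the main scaling) and 6880 in WT (13.3% higher, 48.8% in the main scaling). The causes were not tested. Depth limits Saa1 and Saa2 at rest, where 0 reads allow up to 3 per library, and Wfdc21 and Camp, with 2 to 18 reads per unstimulated library.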
